A study of Mus musculus with 16 samples.

Results

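The genes described here are 37 axon guidance genes of the mouse, out of 29273 gene names on the array. They are the ephrins (5 ephrin-A and 3 ephrin-B ligands), their Eph receptors (8 EphA and 5 EphB), the 3 Slits with 4 Robo receptors, and 3 netrins with the 2 receptors of the Dcc family and 4 Unc5 receptors. The rule is a list of gene symbols (Epha, Ephb, Efna, Efnb, Slit, Robo, Ntn, Dcc, Neo1 and Unc5) and contains no measured value, though the families were picked with earlier results of these data known, and 59 of 41173 probes carried one of these symbols. Each gene was read from its brightest probe, and all 37 passed the filter on dim genes, as did 27841 genes in all.

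Ephrins are membrane-bound ligands: the A class is held by a lipid anchor and binds mainly EphA receptors, and the B class spans the membrane and binds mainly EphB receptors, so that contact between cells can signal in both directions. Slits are secreted proteins that repel growing axons and migrating neurons through Robo receptors. Netrins attract axons through Dcc and repel them through Unc5 receptors. In the newborn forebrain these systems are known for steering migrating interneurons and for the topographic order of axon projections, and in the cerebellum for the paths of precerebellar and granule cell precursors.

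Expression was measured on 16 two-colour Agilent arrays of GABAergic cells, inhibitory neurons that make the transmitter GABA, taken at postnatal day 1 from GAD67-eGFP transgenic mice on a C57Bl/6 background. In these mice green fluorescent protein marks cells that use the Gad1 gene, which encodes glutamate decarboxylase 67, and fluorescent cells were sorted from dissociated tissue. The sorted groups were whole brain (4 arrays, from 4 mice), cerebellum, olfactory bulb, cortex and striatum (3 arrays each, dissected from 6 mice). Each array set Cy5-labelled cDNA of the sorted cells against Cy3-labelled cDNA of one common reference, total brain RNA of 4 age-matched mice, and all samples were amplified by a global PCR. The labels call the arrays of a group biological replicates but do not say which animals were pooled or whether samples of different regions share animals, so p-values measure the spread between these samples. Values are log2 ratios of sorted cells to total brain, so that 0 is the level of the reference and 1 is 2-fold above it. In sorted populations a gene used by fewer cells and a gene with less RNA per cell cannot be told apart.

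Median signals were 150.9 to 717.5 for the Cy5 dye and 92 to 254 for Cy3, and 78.1% to 96.6% of probes passed the scanner's background test in Cy5. Gad1 itself was above total brain on all 12 regional arrays (0.58 to 1.26 on its brightest probe), and below it on all 4 arrays labelled whole brain (-1.61 to -1.39), as on its other probe (-1.36 to -1.26). Of 9 genes of GABA synthesis and forebrain GABAergic cells, 7 were higher and 2 lower than total brain in the arrays labelled whole brain, Gad1 being among the lower. Gad2, the other glutamate decarboxylase, averaged 1.38 and Slc32a1, the vesicular GABA transporter, 1.21. The arrays labelled whole brain therefore go against their label in the gene that defines the sort, and they were also scanned on another day than the 12 regional arrays, so that batch and group cannot be told apart between them. Lists of markers for glutamatergic neurons, astrocytes and meninges averaged below 0 on every array. So did a list for medial ganglionic eminence cortical interneurons, themselves GABAergic, at -0.80 to -0.66 in cortex and -1.47 to -1.35 in whole brain. In cortex against total brain 2 of its 7 genes were higher and 4 lower. Cycling progenitor markers averaged 0.36 to 0.60 in whole brain, 0.35 to 0.55 in cerebellum and 0.45 to 0.55 in striatum. They averaged -0.13 to 0.16 in olfactory bulb and -0.03 to 0.09 in cortex.

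Among the 4 regions, 30 of the 37 guidance genes (81.1%) differed by limma's F test at an adjusted p under 0.05, where 57.3% of all genes tested did. A difference of at least 2-fold between the highest and lowest region was found for 14 of them (37.8%), against 3.78% of all genes. The median range between regions was 0.78 on the log2 scale for the guidance genes and 0.38 for all genes. All 3 systems were among the 14: the ephrins Efna5 and Efnb2, the receptors Epha4, Epha5, Epha7, Ephb1, Ephb2 and Ephb6, the Slit receptors Robo1, Robo2 and Robo3, and Ntn1 with Unc5a and Unc5c. No Slit and neither Dcc nor Neo1 reached that range. These ranges are those of the brightest probes. On the second probe the range was below 2-fold for Epha4 (0.80), Epha5 (0.52) and Epha7 (0.51). The ranges of the 6 Robo2 probes were 0.27 to 1.81. With the 12 regional arrays fitted alone, 32 of the 37 were called, and 16774 of all 27841 genes.

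**Figure D1:**
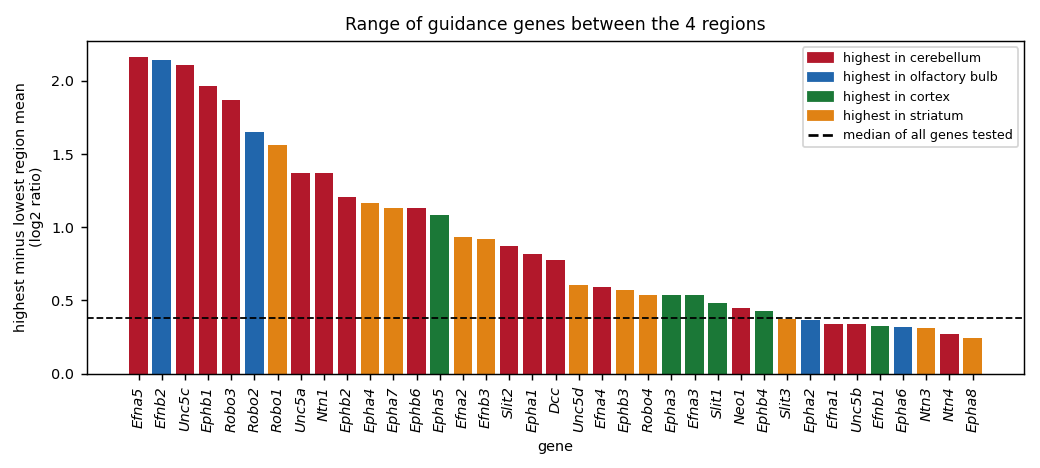
Range of each of the 37 guidance genes between the 4 regional means, as highest minus lowest log2 ratio, coloured by the region with the highest mean. The widest ranges belong to Efna5 (2.17), Efnb2 (2.14) and Unc5c (2.11), and the dashed line marks the median of all genes tested (0.38).

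**Figure D2:**
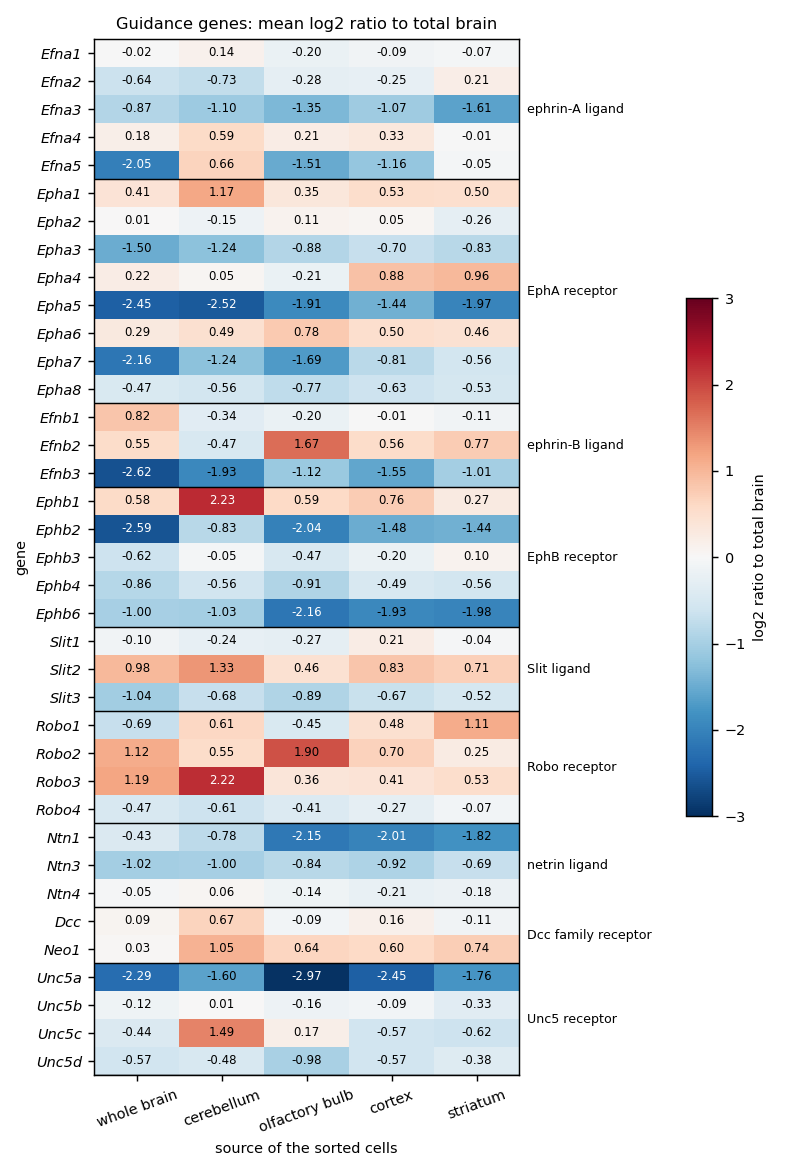
Mean log2 ratio to total brain of the 37 guidance genes (rows, by role) in sorted cells of whole brain (4 arrays), cerebellum, olfactory bulb, cortex and striatum (3 arrays each), with each mean printed in its cell. Red is above total brain and blue below it: Ephb1, Robo3 and Unc5c stand out in cerebellum, Efnb2 and Robo2 in olfactory bulb, and Unc5a, Epha5, Efnb3, Ephb2 and Ephb6 are below total brain in every column.

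Cerebellar cells differed from the mean of the other 3 regions in 23 guidance genes, 14 higher and 9 lower (40.4% of all genes were called, 23.8% higher and 16.6% lower), and in 6 of them by at least 2-fold (1.17% of all genes). The receptors and ligands higher by that margin were Unc5c, Robo3, Ephb1, Efna5 and Ntn1. Efnb2 was lower. The members with smaller differences that were higher in cerebellum included both Dcc family receptors, Slit2, Epha1, Ephb2, Ephb6, Unc5a, Efna4 and Robo1. For Slit2 this holds on the brightest probe, and on another probe cerebellum was the lowest region.

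Efna5, a GPI-anchored ligand known from topographic mapping, had log2 ratios of 0.58, 0.82 and 0.58 in cerebellum, against -1.41, -1.60 and -1.52 in olfactory bulb, -1.20, -0.94 and -1.34 in cortex and 0.01, -0.08 and -0.07 in striatum. Cerebellum was the only region above total brain on every array, striatum lay at the level of total brain, and olfactory bulb and cortex lay below it, with no overlap between cerebellum and any other region. The cerebellar mean exceeded that of the other 3 regions by 1.56 ± 0.083 (SE; limma adjusted p = 3.56e-11). All 6 pairs of regions differed, the closest being olfactory bulb against cortex at -0.35 ± 0.10 (SE; limma adjusted p = 0.0242).

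Ephb1, a receptor for B-class ephrins known from the crossing of retinal axons, had log2 ratios of 2.40, 1.78 and 2.51 in cerebellum, against 0.62, 0.53 and 0.62 in olfactory bulb, 0.86, 0.58 and 0.84 in cortex and 0.21, 0.37 and 0.22 in striatum. Every cerebellar array stood above every array of the other regions, which lay close together. The difference was 1.69 ± 0.13 (SE; limma adjusted p = 1.21e-08). Below cerebellum, cortex and olfactory bulb did not pass the test against each other (adjusted p = 0.545), nor did olfactory bulb against striatum (adjusted p = 0.15), while cortex exceeded striatum by 0.49 (adjusted p = 0.0412).

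Robo3, a divergent Robo receptor known for letting commissural axons cross the midline, had log2 ratios of 2.02, 2.61 and 2.04 in cerebellum, against 0.39, 0.41 and 0.27 in olfactory bulb, 0.38, 0.38 and 0.48 in cortex and 0.55, 0.36 and 0.67 in striatum. All 3 cerebellar arrays were more than 1 log2 unit above any other regional array, and none of the other 3 regions passed the test against another. The difference was 1.79 ± 0.12 (SE; limma adjusted p = 1.23e-09). Unc5c, a netrin receptor whose loss in mice disturbs cerebellar development, had log2 ratios of 1.38, 1.90 and 1.18 in cerebellum, against 0.12, 0.05 and 0.33 in olfactory bulb, -0.50, -0.62 and -0.58 in cortex and -0.75, -0.76 and -0.36 in striatum. Cerebellum was highest without overlap, olfactory bulb came next, and cortex and striatum overlapped. The difference between cerebellum and the other 3 regions was 1.83 ± 0.12 (SE; limma adjusted p = 1.39e-09), and cortex against striatum did not pass the test (adjusted p = 0.822).

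Ntn1, the secreted netrin that binds both Dcc and Unc5 receptors, had log2 ratios of -0.75, -0.95 and -0.64 in cerebellum, against -2.05, -2.25 and -2.15 in olfactory bulb, -1.88, -1.94 and -2.21 in cortex and -1.69, -1.85 and -1.92 in striatum. It was below total brain on every regional array, least so in cerebellum, with a difference of 1.21 ± 0.084 (SE; limma adjusted p = 2.22e-09). Its receptors were spread over both signs: in cerebellum Unc5c averaged 1.49 ± 0.37 (SD, n = 3), Neo1 1.05 ± 0.093 (SD, n = 3) and Dcc 0.67 ± 0.10 (SD, n = 3), while Unc5a averaged -1.60 ± 0.010 (SD, n = 3). A brighter probe described as neogenin, the gene Neo1, entered no comparison and averaged -0.58 in cerebellum. Dcc, the attractive netrin receptor, exceeded the other regions by 0.68 ± 0.076 (SE; limma adjusted p = 1.72e-06) and Neo1, which also binds repulsive guidance molecules, by 0.39 ± 0.076 (SE; limma adjusted p = 0.00049). The Dcc value of 1 striatum array is missing because its spot was marked as an outlier by the scanner software.

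Ephb2 and Ephb6 were below total brain in every region and least so in cerebellum. Ephb2, an EphB receptor of axons and synapses, had log2 ratios of -0.87, -0.71 and -0.89 in cerebellum, against -1.95, -2.13 and -2.03 in olfactory bulb, -1.38, -1.48 and -1.58 in cortex and -1.47, -1.40 and -1.46 in striatum. Cerebellum did not overlap with the other regions, and the difference was 0.83 ± 0.078 (SE; limma adjusted p = 1.4e-07). Ephb6, a receptor without kinase activity, had log2 ratios of -1.00, -0.99 and -1.10 in cerebellum, against -1.93, -2.28 and -2.29 in olfactory bulb, -1.76, -1.97 and -2.06 in cortex and -1.97, -2.05 and -1.91 in striatum. Cerebellum again lay apart, by 0.99 ± 0.084 (SE; limma adjusted p = 3.74e-08), and the 3 forebrain regions could not be ordered among themselves (adjusted p = 0.139 to 0.814 over their 3 pairs).

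The B-class ligands Efnb2 and Efnb3 were lower in cerebellum. Efnb2, a transmembrane ephrin, had log2 ratios of -0.37, -0.81 and -0.23 in cerebellum, against 1.74, 1.68 and 1.59 in olfactory bulb, 0.64, 0.52 and 0.51 in cortex and 0.85, 0.85 and 0.60 in striatum. The cerebellar arrays were the only regional arrays below total brain, and the difference from the other regions was -1.47 ± 0.11 (SE; limma adjusted p = 3.71e-09). Efnb3, a transmembrane ephrin of the midline, had log2 ratios of -1.99, -1.82 and -2.00 in cerebellum, against -1.10, -1.21 and -1.04 in olfactory bulb, -1.61, -1.43 and -1.63 in cortex and -0.90, -1.11 and -1.03 in striatum, and its cerebellar difference was -0.71 ± 0.075 (SE; limma adjusted p = 6.62e-07). Epha5, an EphA receptor of forebrain projections, was lowest in cerebellum as well, with log2 ratios of -2.33, -2.83 and -2.39 in cerebellum, against -1.81, -1.86 and -2.06 in olfactory bulb, -1.48, -1.42 and -1.41 in cortex and -1.84, -1.87 and -2.21 in striatum. Its difference was -0.75 ± 0.11 (SE; limma adjusted p = 2.19e-05), and no cerebellar array overlapped with another region.

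Marker lists moved with these differences. Of 11 markers of cerebellar GABAergic neurons 7 were higher in cerebellum than in the other regions and 1 was lower, and their mean was 0.57 to 0.63 on the cerebellar arrays, against -0.65 to -0.48 in olfactory bulb, -0.60 to -0.50 in cortex and -0.67 to -0.56 in striatum. Of 8 markers of the cerebellar granule cell lineage, which is glutamatergic, 6 were higher in cerebellum and none was lower. Their mean was 0.87 to 1.15 in cerebellum, against -0.24 to -0.09 in olfactory bulb, -0.60 to -0.51 in cortex and -0.30 to -0.25 in striatum. Zic1 reached 2.38, Neurod1 1.68 and Atoh1 0.71 in cerebellum, and the mature marker Gabra6 was at -0.01, well above background on only 3 of the 16 arrays. In cerebellum against the other regions the GABA synthesis and forebrain list had 1 higher and 7 lower of 9, with array means of 0.46 to 0.64 in cerebellum, against 1.68 to 1.74 in olfactory bulb, 1.55 to 1.80 in cortex and 1.56 to 1.79 in striatum. The microglia list had 5 higher and 0 lower of 7 and the oligodendrocyte list 4 higher and 0 lower of 7, both with means below 0 on every array. The glutamatergic and astrocyte lists each had 4 higher and 2 lower of 9. The glutamatergic means were -1.73 to -1.42 in cerebellum and -2.33 to -2.15 in olfactory bulb. They were -1.94 to -1.77 in cortex and -2.17 to -1.93 in striatum. The part of these cells in the cerebellar values of the guidance genes was not tested.

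Olfactory bulb cells differed from the other 3 regions in 23 guidance genes (29.7% of all genes), of which 5 were higher and 18 lower (13.8% and 15.9% of all genes). At least 2-fold differences were found for 5 (0.6% of all genes): Efnb2 and Robo2 were higher, and Efna5, Robo1 and Unc5a were lower. The median difference was -0.20 over the 37 genes and -0.01 over all genes tested.

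Efnb2 was highest in olfactory bulb, at 1.74, 1.68 and 1.59, above every array of the other regions without overlap, and exceeded their mean by 1.38 ± 0.11 (SE; limma adjusted p = 2.28e-08). Cortex and striatum did not pass the test against each other (adjusted p = 0.278). Efna5 lay at the other end in olfactory bulb, at -1.32 ± 0.083 (SE; limma adjusted p = 1.13e-09) against the other regions.

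The Slit receptors Robo1 and Robo2 differed in opposite directions in olfactory bulb. On its brightest probe Robo2 had log2 ratios of 1.95, 1.96 and 1.80 in olfactory bulb, against 0.65, 0.36 and 0.65 in cerebellum, 0.78, 0.70 and 0.61 in cortex and 0.26, 0.28 and 0.22 in striatum. Olfactory bulb was highest without overlap and striatum lowest, and the difference was 1.40 ± 0.081 (SE; limma adjusted p = 4.1e-10). Robo1 had log2 ratios of -0.38, -0.47 and -0.50 in olfactory bulb, against 0.57, 0.56 and 0.71 in cerebellum, 0.46, 0.53 and 0.46 in cortex and 1.22, 1.12 and 0.99 in striatum. Olfactory bulb was the only region below total brain and striatum was highest, and the olfactory bulb difference was -1.19 ± 0.067 (SE; limma adjusted p = 3.11e-10). Robo1 exceeded the other regions in striatum by 0.89 ± 0.067 (SE; limma adjusted p = 3.82e-08), where Robo2 was lower, at -0.80 ± 0.081 (SE; limma adjusted p = 1.48e-06). On the other 5 Robo2 probes cerebellum, not striatum, was the lowest region, and their striatal differences were -0.53 to -0.02. Between olfactory bulb and striatum the difference on the brightest probes was 1.65 ± 0.10 (SE; limma adjusted p = 1.1e-09) for Robo2 and -1.56 ± 0.083 (SE; limma adjusted p = 2.21e-10) for Robo1.

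Unc5a, a repulsive netrin receptor, was far below total brain in every region and lowest in olfactory bulb. Its log2 ratios were -2.77, -3.02 and -3.14 in olfactory bulb, against -1.61, -1.60 and -1.59 in cerebellum, -2.54, -2.33 and -2.48 in cortex and -1.95, -1.74 and -1.60 in striatum. No olfactory bulb array overlapped with the other regions, and the difference was -1.04 ± 0.11 (SE; limma adjusted p = 2.03e-06). Cerebellum against striatum did not pass the test (adjusted p = 0.381). Of the olfactory bulb interneuron markers, 5 of 6 were higher in olfactory bulb than in the other regions and 1, Th, was lower. Their mean was 1.29 to 1.37 on the olfactory bulb arrays, against -0.71 to -0.64 in cerebellum, 0.46 to 0.60 in cortex and 0.46 to 0.63 in striatum. The microglia list had 0 higher and 6 lower of 7 in olfactory bulb against the other regions, the striatal projection neuron list 1 higher and 6 lower of 11, the glutamatergic list 0 higher and 5 lower of 9 and the oligodendrocyte list 1 higher and 4 lower of 7. The microglia means were -0.97 to -0.74 in olfactory bulb, against -0.13 to -0.07 in cerebellum, -0.56 to -0.49 in cortex and -0.22 to -0.21 in striatum. The part of these cells in the guidance gene values was not tested.

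Cortex stood apart least. It differed from the other regions in 8 guidance genes (10.5% of all genes), 4 in each direction (4.45% of all genes were higher and 6.01% lower), and in none by 2-fold (0.154% of all genes, 0.0503% higher and 0.104% lower). Striatum differed in 21 (30% of all genes), 11 higher and 10 lower (13.5% and 16.5% of all genes), and in none by 2-fold (0.338% of all genes). On their brightest probes Epha4 and Epha7 were higher in both regions. Epha4, a receptor that binds ephrins of both classes, had log2 ratios of 1.10, 0.89 and 0.90 in striatum, against 0.14, -0.09 and 0.10 in cerebellum, -0.26, -0.17 and -0.18 in olfactory bulb and 0.93, 0.88 and 0.82 in cortex. Striatum and cortex lay above cerebellum and olfactory bulb without overlap, and cortex and striatum did not pass the test against each other (adjusted p = 0.599).

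The striatal difference of Epha4 was 0.72 ± 0.083 (SE; limma adjusted p = 6.49e-06) and the cortical one 0.61 ± 0.083 (SE; limma adjusted p = 0.000114). The second Epha4 probe averaged 0.46 in striatum, 0.31 in cortex, -0.22 in cerebellum and -0.34 in olfactory bulb. Epha7, an EphA receptor of corticothalamic projections, had log2 ratios of -0.49, -0.46 and -0.72 in striatum, against -1.19, -1.16 and -1.38 in cerebellum, -1.75, -1.80 and -1.52 in olfactory bulb and -0.85, -0.71 and -0.85 in cortex. Striatum and cortex overlapped below total brain, with cerebellum and olfactory bulb lower still, and the striatal difference was 0.69 ± 0.10 (SE; limma adjusted p = 4.2e-05). On its second probe Epha7 was lowest in striatum, at 0.33, against 0.47 in cerebellum, 0.65 in olfactory bulb and 0.84 in cortex. Epha5 was highest in cortex on its brightest probe, at -1.48, -1.42 and -1.41, and exceeded the other regions by 0.70 ± 0.11 (SE; limma adjusted p = 0.000333). On its other, dimmer probe Epha5 was highest in olfactory bulb, at -0.09, against -0.16 in cortex. Efna3, an ephrin-A ligand, was lowest in striatum, with log2 ratios of -1.65, -1.61 and -1.57 in striatum, against -1.25, -1.00 and -1.05 in cerebellum, -1.36, -1.52 and -1.19 in olfactory bulb and -1.12, -1.03 and -1.07 in cortex, and its striatal difference was -0.43 ± 0.12 (SE; limma adjusted p = 0.0127).

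Markers moved in striatum and cortex too. In striatum against the other regions the striatal projection neuron list had 6 higher and 1 lower of 11, with array means of 0.10 to 0.24 in striatum, against -0.72 to -0.58 in cerebellum, -0.71 to -0.63 in olfactory bulb and -0.12 to 0.00 in cortex. The astrocyte list had 6 higher and 0 lower of 9, microglia 4 higher and 1 lower of 7, the oligodendrocyte lineage 4 higher and 1 lower of 7 and cycling progenitors 4 higher and 1 lower of 6. In cortex the astrocyte list had 0 higher and 5 lower of 9, the oligodendrocyte lineage 0 higher and 5 lower of 7 and cycling progenitors 0 higher and 4 lower of 6. The astrocyte means were -0.97 to -0.93 in striatum and -1.70 to -1.54 in cortex. The part of these cells in the striatal and cortical values of the guidance genes was not tested.

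Between single regions, the test called 25 guidance genes for cerebellum against olfactory bulb (39.7% of all genes), 11 of them by 2-fold (2.4%). It called 20 guidance genes for cerebellum against cortex (26% of all genes), 7 of them by 2-fold (1.33%), and 25 guidance genes for cerebellum against striatum (38.6% of all genes), 5 of them by 2-fold (1.4%). Within the forebrain it called 16 guidance genes for olfactory bulb against cortex (16.3% of all genes), 3 of them by 2-fold (0.363%), and 18 guidance genes for olfactory bulb against striatum (27.4% of all genes), 6 of them by 2-fold (1.07%). It called 12 guidance genes for cortex against striatum (18.6% of all genes), 1 of them by 2-fold (0.366%), which was Efna5, at -1.11 ± 0.10 (SE; limma adjusted p = 1.47e-06).

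**Figure D3:**
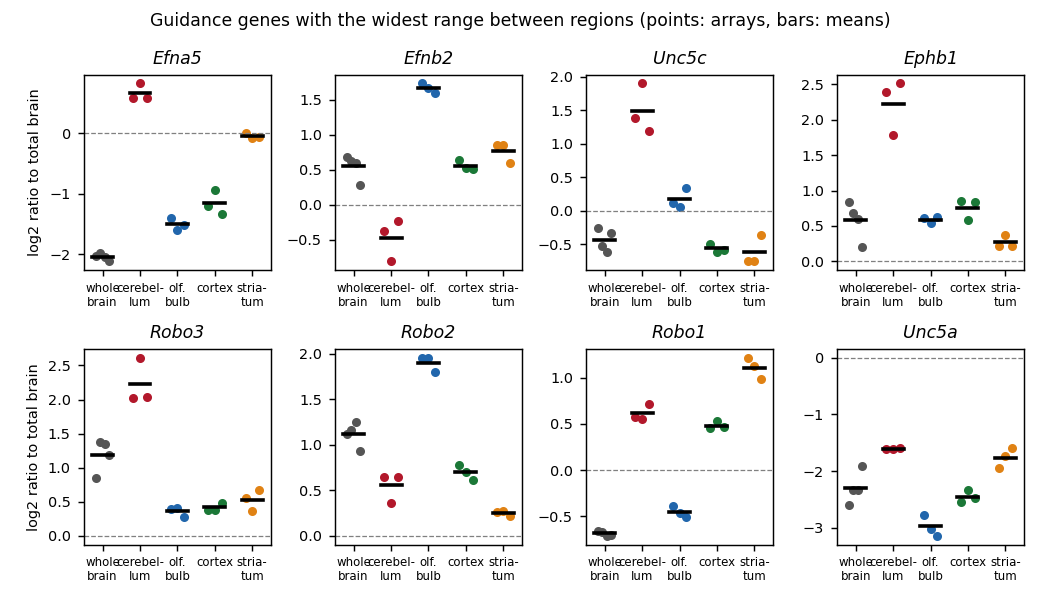
Log2 ratio to total brain on each array (points) for the 8 guidance genes with the widest range between regions, with group means as bars and total brain as the dashed line. Efna5, Unc5c, Ephb1 and Robo3 are highest in cerebellum, Efnb2 and Robo2 in olfactory bulb and Robo1 in striatum, each without overlap with the other regions.

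The RefSeq promoters of the 5 genes with the widest range between regions are shown because these genes carry the widest regional contrast: Efna5, Unc5c, Ephb1 and Robo3, highest in cerebellum, and Efnb2, highest in olfactory bulb. Each is the 250 bases before the transcription start in build GRCm38.p6, read 5′ to 3′ on the strand of the gene, with capitals marking matches on either strand to TAATTA, a core recognised by many homeodomain factors, and to GGGCGG, the GC box of Sp factors.
Efna5, chr17:62881318-62881567, minus strand: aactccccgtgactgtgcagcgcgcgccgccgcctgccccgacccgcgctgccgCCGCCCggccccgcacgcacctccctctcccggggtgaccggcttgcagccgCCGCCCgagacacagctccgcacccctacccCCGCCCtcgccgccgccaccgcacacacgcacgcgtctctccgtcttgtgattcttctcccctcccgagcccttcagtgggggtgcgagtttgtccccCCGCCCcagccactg
Unc5c, chr3:141465314-141465563, plus strand: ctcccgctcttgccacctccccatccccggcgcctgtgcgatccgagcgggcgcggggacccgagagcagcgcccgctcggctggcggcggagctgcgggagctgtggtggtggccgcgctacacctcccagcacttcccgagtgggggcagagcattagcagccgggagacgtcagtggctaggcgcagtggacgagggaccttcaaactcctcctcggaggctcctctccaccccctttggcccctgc
Ephb1, chr9:102354694-102354943, minus strand: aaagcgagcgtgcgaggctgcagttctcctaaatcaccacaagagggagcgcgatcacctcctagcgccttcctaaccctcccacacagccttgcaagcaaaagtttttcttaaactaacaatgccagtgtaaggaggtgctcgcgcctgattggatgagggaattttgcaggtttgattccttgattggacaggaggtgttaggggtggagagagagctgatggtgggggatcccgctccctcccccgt
Robo3, chr9:37433176-37433425, minus strand: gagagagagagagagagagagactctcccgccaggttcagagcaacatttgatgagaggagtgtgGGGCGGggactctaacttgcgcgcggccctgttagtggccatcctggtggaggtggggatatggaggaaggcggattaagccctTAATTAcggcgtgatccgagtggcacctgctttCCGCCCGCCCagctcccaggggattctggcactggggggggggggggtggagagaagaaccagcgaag
Efnb2, chr8:8661243-8661492, minus strand: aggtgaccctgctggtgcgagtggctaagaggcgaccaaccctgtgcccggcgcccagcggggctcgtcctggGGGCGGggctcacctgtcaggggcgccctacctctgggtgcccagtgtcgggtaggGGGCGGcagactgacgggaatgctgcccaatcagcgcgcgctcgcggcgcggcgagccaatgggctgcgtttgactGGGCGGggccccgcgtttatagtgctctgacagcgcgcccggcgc
TAATTA was found in the Robo3 window only of these 5, 101 bases before the start, and 4.8% of all 32851 promoter windows of that length hold it. GGGCGG was found 4 times in Efna5, 3 times in Efnb2 and 3 times in Robo3, where 2 of the matches overlap, and not in Unc5c or Ephb1. It is held by 32.7% of all windows, and by 26 of the 37 windows of the 32 guidance genes with an entry, whose median GC content is 65.6% against 52.4% over all windows. A match describes the letters of the window, not a binding site or a cause.

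Against total brain, the median log2 ratio of the 37 guidance genes was -0.44 in whole brain, -0.24 in cerebellum, -0.28 in olfactory bulb, -0.21 in cortex and -0.11 in striatum, where the medians of all genes lay between 0.03 and 0.09. The number called was 29 in whole brain (79.6% of all genes), 31 in cerebellum (75.9%), 29 in olfactory bulb (67.9%), 32 in cortex (69.4%) and 28 in striatum (67.5%), or 75.7% to 86.5% of the members. Of these 9 were higher and 20 lower in whole brain (44.9% and 34.7% of all genes), 12 and 19 in cerebellum (42.7% and 33.2%), 8 and 21 in olfactory bulb (36.7% and 31.2%), 13 and 19 in cortex (37.9% and 31.5%), and 11 and 17 in striatum (36.1% and 31.4%). By at least 2-fold, 9 guidance genes were lower and 2 higher in whole brain, 7 lower and 6 higher in cerebellum, 9 lower and 2 higher in olfactory bulb, 8 lower and none higher in cortex, and 7 lower and 1 higher in striatum. A 2-fold difference in either direction was called for 22.2% of all genes in whole brain, 16.5% in cerebellum, 14.4% in olfactory bulb, 13.8% in cortex and 9.4% in striatum. By direction, 13.7% of all genes were lower and 8.56% higher in whole brain, 8.26% and 8.28% in cerebellum, 8.03% and 6.34% in olfactory bulb, 7.8% and 6% in cortex, and 5.83% and 3.56% in striatum. All 5 comparisons share the total brain reference, so their values are given side by side.

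The members lowest against total brain came from the ephrin and netrin systems. Unc5a averaged -2.29 in whole brain, -1.60 in cerebellum, -2.97 in olfactory bulb, -2.45 in cortex and -1.76 in striatum. Epha5 averaged -2.45 in whole brain, -2.52 in cerebellum, -1.91 in olfactory bulb, -1.44 in cortex and -1.97 in striatum. Its second, dimmer probe averaged 0.51 in whole brain, -0.60 in cerebellum, -0.09 in olfactory bulb, -0.16 in cortex and -0.28 in striatum. Efnb3 averaged -2.62 in whole brain, -1.93 in cerebellum, -1.12 in olfactory bulb, -1.55 in cortex and -1.01 in striatum. On their brightest probes these 3 genes were below total brain on all 16 arrays. Ephb2, Ephb6, Ntn1, Epha7 and Efna3 were below total brain on all arrays too, again on their brightest probes. All of these genes were chosen for large one-sided ratios, and the share of all genes on one side throughout was not counted. Group means were -2.59 to -0.83 for Ephb2 and -1.61 to -0.87 for Efna3. Every one of these brightest-probe means passed the test against total brain, with limma adjusted p of at most 6.8e-06. The second Epha7 probe averaged -0.07 in whole brain, 0.47 in cerebellum, 0.65 in olfactory bulb, 0.84 in cortex and 0.33 in striatum.

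**Figure D4:**
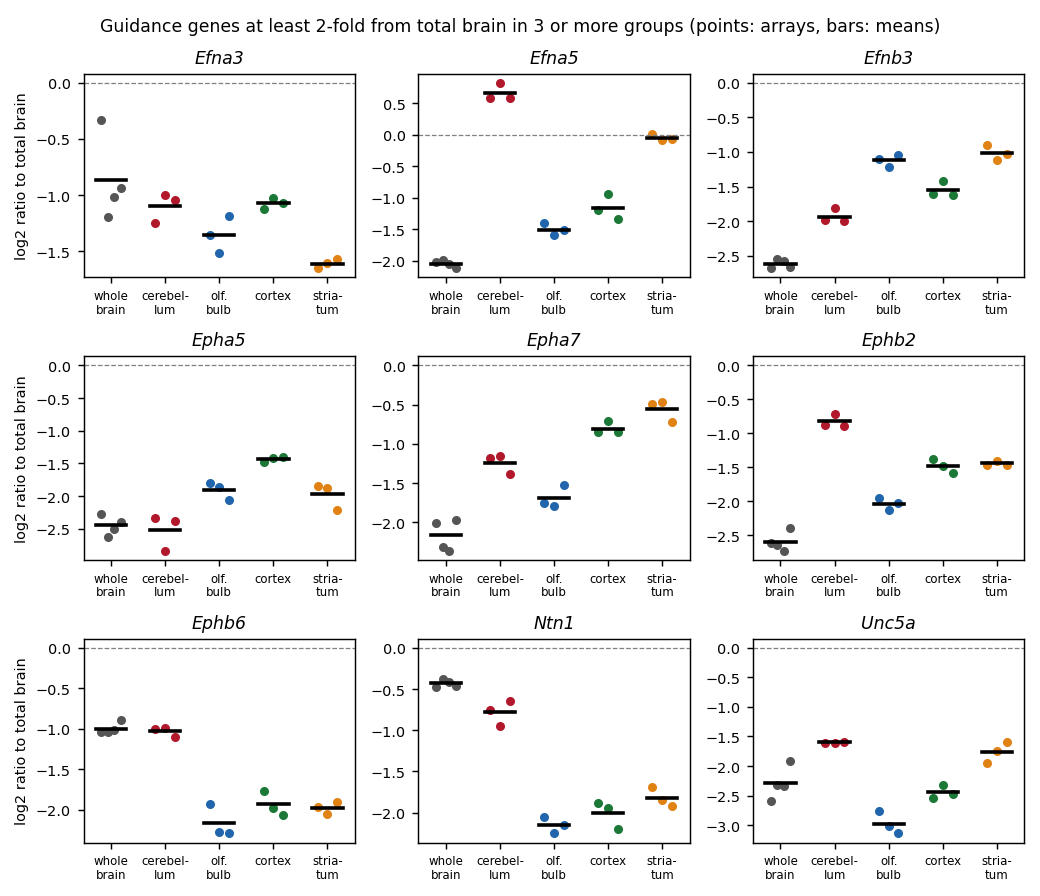
Log2 ratio to total brain on each array (points), with group means as bars. The 9 guidance genes were chosen as at least 2-fold from total brain, with all arrays on one side, in 3 or more groups. All points lie below the dashed line of total brain for 8 of the genes, and Efna5 lies above it in cerebellum and on 1 striatum array.

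Other members lay above total brain on their brightest probes. Ephb1 averaged 0.58 in whole brain, 2.23 in cerebellum, 0.59 in olfactory bulb, 0.76 in cortex and 0.27 in striatum. Robo2 averaged 1.12 in whole brain, 0.55 in cerebellum, 1.90 in olfactory bulb, 0.70 in cortex and 0.25 in striatum, and Robo3 averaged 1.19 in whole brain, 2.22 in cerebellum, 0.36 in olfactory bulb, 0.41 in cortex and 0.53 in striatum. On 3 of its 5 other probes Robo2 was below total brain in whole brain and cerebellum, at -0.74, -0.50 and -0.16 in cerebellum. In striatum the same 3 probes averaged -0.30, -0.26 and 0.65. Slit2 averaged 0.98 in whole brain, 1.33 in cerebellum, 0.46 in olfactory bulb, 0.83 in cortex and 0.71 in striatum, with 1 olfactory bulb array missing after its spot was left out. Another Slit2 probe had the opposite sign, at -0.82 in whole brain, -0.70 in cerebellum, -0.67 in olfactory bulb, -0.66 in cortex and -0.37 in striatum. Slit3 was below total brain throughout, at -1.04 in whole brain, -0.68 in cerebellum, -0.89 in olfactory bulb, -0.67 in cortex and -0.52 in striatum, and Slit1 lay within -0.27 to 0.21. On their brightest probes Epha1 and Epha6 were above total brain on all arrays as well, while the second Epha6 probe averaged -0.47 in whole brain, -0.53 in cerebellum, -0.10 in olfactory bulb, -0.38 in cortex and -0.35 in striatum. By the same reading Epha3, Epha8, Ephb4, Ntn3 and Unc5d were below it on all arrays.

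The members that did not pass the F test among regions were 7, namely Efna1, Efnb1, Epha8, Ntn3, Ntn4, Slit3 and Unc5b, with ranges of 0.24 to 0.37. Unc5b was not well above background in Cy5 on any cortex or striatum array, so no fold is given for it there. Epha2 was not well above background in the reference channel on any olfactory bulb or cortex array. The other 16 called members had ranges of 0.32 to 0.94. The widest of these was Efna2, with means of 0.21 in striatum, -0.25 in cortex, -0.28 in olfactory bulb and -0.73 in cerebellum.

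Cells labelled whole brain differed from the mean of the 4 regions in 23 guidance genes (62.2%), a share near that of all genes (61.7%). Of the members 6 were higher (16.2%, against 31.1% of all genes) and 17 were lower (45.9%, against 30.6% of all genes). By at least 2-fold 6 differed (9.85% of all genes): Efna5, Efnb3, Ephb2, Robo1 and Epha7 were lower and Ntn1 was higher. Efna5 was at -2.03, -1.99, -2.05 and -2.12 on the whole brain arrays, below every regional array, and the difference was -1.53 ± 0.072 (SE; limma adjusted p = 3.23e-13). Efnb3 was at -2.68, -2.55, -2.57 and -2.67 and differed by -1.21 ± 0.065 (SE; limma adjusted p = 2.25e-12). Ephb2 was at -2.61, -2.64, -2.73 and -2.39 and differed by -1.15 ± 0.067 (SE; limma adjusted p = 1.01e-11). These 3 genes, and Robo1 and Epha7 as well, had whole brain means below all 4 regional means. Robo1 was at -0.66, -0.67, -0.71 and -0.70 and differed by -1.12 ± 0.058 (SE; limma adjusted p = 1.58e-12). Epha7 was at -2.00, -2.32, -2.36 and -1.97 and differed by -1.09 ± 0.083 (SE; limma adjusted p = 5.35e-10). Ntn1 was at -0.47, -0.38, -0.41 and -0.46, above every regional array, and differed by 1.26 ± 0.073 (SE; limma adjusted p = 8.59e-12). With arrays scaled to one spread, the differences of Efnb3, Epha7 and Ephb2 were -0.68, -0.64 and -0.55, and with the mean of all probes those of Efna5 and Ntn1 were -0.86 and 0.32.

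Of the 37 genes 14 had more than 1 probe, and the probes of some genes disagreed. The second Efna5 probe gave a cerebellar difference of 1.42 ± 0.10 (SE; limma adjusted p = 3.85e-09) and the second Efnb2 probe one of -2.38 ± 0.077 (SE; limma adjusted p = 2.31e-14). The second Robo3 probe gave 2.35 ± 0.15 (SE; limma adjusted p = 3.81e-10) and the second Ntn1 probe 1.15 ± 0.10 (SE; limma adjusted p = 4.7e-08). Olfactory bulb was the highest region on all 6 Robo2 probes, with differences from the other regions of 0.17 (adjusted p = 0.355) to 1.55. In whole brain, 5 genes had probes of both signs.

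For Ntn1 the second probe averaged -1.81 in whole brain, where the brightest averaged -0.43, and its difference from the regions was -0.62 ± 0.086 (SE; limma adjusted p = 3.16e-06), opposite in sign to that of the brightest. For Efnb2 the second probe averaged -1.67 in whole brain and the brightest 0.55. The Robo2 probes ranged from -1.28 to 1.12 there. For Efna5 the second probe averaged -0.69, and its difference from the regions did not pass the test, at -0.18 ± 0.089 (SE; limma adjusted p = 0.0808). The files used here hold no probe sequences, so which transcripts each probe reads was not analysed.

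**Figure D5:**
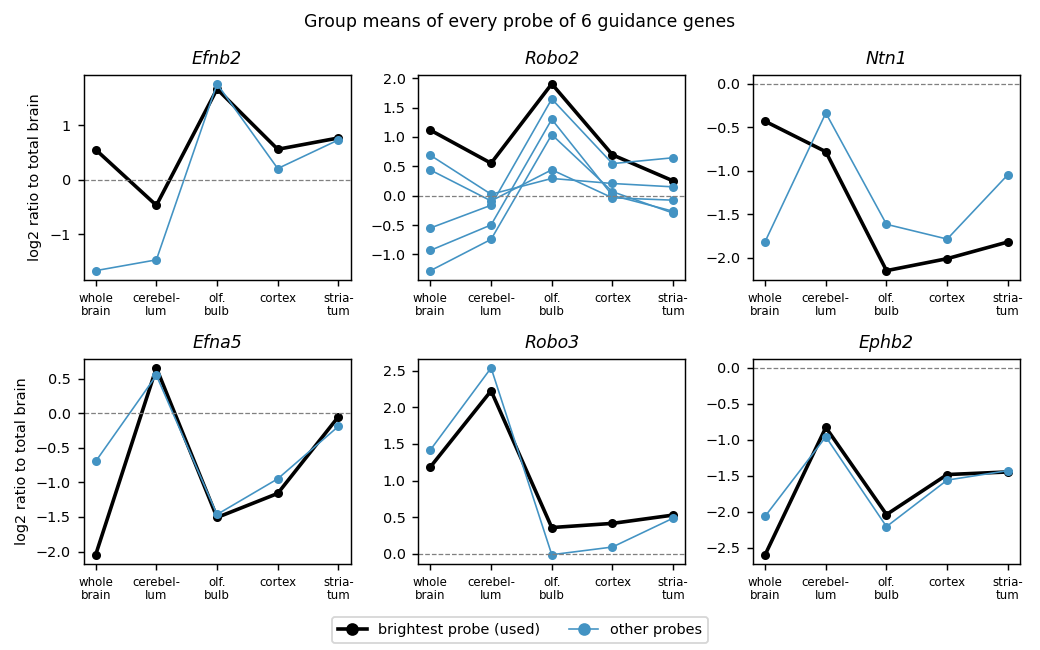
Group means of every probe of 6 guidance genes, as log2 ratio to total brain, with the brightest probe in black and the others in blue. Within a gene the lines run together across the 4 regions for Efna5, Ephb2 and Robo3 and part at whole brain for Efnb2, Robo2, Ntn1 and Efna5.

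When the difference between groups was split by channel, every 2-fold difference among regions and between whole brain and regions lay mostly in the sorted channel, and the reference channel moved by at most 0.40 on the log2 scale.

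Signalling partners of these ligands and receptors were listed from general knowledge, and the lists also hold other ligands and receptors. Among regions, 20 of 28 Eph and ephrin partners tested passed the F test, as did 14 of 18 Slit and Robo partners and 23 of 31 netrin partners, where 57.3% of all genes did. A 2-fold range was reached by 3, 1 and 4 of them, and by 3.78% of all genes. The lists share some genes, and Flrt3 was counted in both the Slit and Robo list and the netrin list. Grip1, a PDZ scaffold that binds B-class ephrins, averaged -1.01 in cerebellum, 1.44 in olfactory bulb, 0.41 in cortex and 0.34 in striatum. Tiam2, a Rac activator, averaged 1.03 in cerebellum, 3.13 in olfactory bulb, 3.39 in cortex and 3.38 in striatum. Flrt3, a membrane protein that binds Unc5 and Robo1, averaged -0.07 in cerebellum, 0.55 in olfactory bulb, 1.05 in cortex and 1.59 in striatum. Ngef, an exchange factor bound by EphA receptors, averaged 0.88 in cerebellum, -0.19 in olfactory bulb, 0.90 in cortex and 0.33 in striatum. Adgrl2, a latrophilin of the Flrt and Unc5 complex, averaged -1.04 in cerebellum, -2.11 in olfactory bulb, -0.94 in cortex and -0.57 in striatum, and Dscam, a netrin receptor, averaged 0.39 in cerebellum, 0.66 in olfactory bulb, -0.64 in cortex and -0.49 in striatum. Dapk1, a kinase of Unc5 signalling, averaged -1.20 in cerebellum, -0.13 in olfactory bulb, -0.38 in cortex and -0.53 in striatum. In cerebellum against the other 3 regions, 3 higher and 9 lower Eph and ephrin partners were called, 5 higher and 6 lower Slit and Robo partners, and 5 higher and 7 lower netrin partners, where 23.8% of all genes were higher and 16.6% lower. In olfactory bulb the counts were 9 higher and 4 lower, 3 higher and 8 lower, and 9 higher and 9 lower in the same order of lists (13.8% and 15.9% of all genes). In cortex they were 2 higher and 2 lower, 3 higher and 2 lower, and 5 higher and 8 lower (4.45% and 6.01%). In striatum they were 6 higher and 6 lower, 7 higher and 1 lower, and 9 higher and 6 lower (13.5% and 16.5%).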

How the data were processed

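Per the file headers, each scanner file gives the mean spot intensity and the local background intensity for Cy5 and Cy3, together with a log10 ratio made by the software. The quantification used Agilent Feature Extraction 8.1.1.1, per the submitters' processing notes, and the file header of striatum array 2 names another extraction protocol than those of the other arrays. The value table deposited by the authors holds the log10 ratio, which it matches to within 0.005, and its column medians are 0 to 0.0334. The direction, Cy5 over Cy3, rests on the dye names, since the labels call both dyes red. Dyes were not swapped, so a probe's dye effect remains in its ratio to total brain and cancels between groups.

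Log2 ratios were computed from the intensities with limma 3.58.1 in R 4.3.3 (with Python 3.11.15, pandas 2.3.3, matplotlib 3.10.9): normexp background correction with offset 50, loess within arrays, no scaling between arrays, control and outlier spots left out, spots averaged by probe and the brightest probe kept by gene. Genes entered the tests if Cy5 passed the scanner's background test on 3 arrays or Cy3 on 8. A single spot with a missing field was left out. The 16 arrays entered 1 fit of group means (lmFit, eBayes), with Benjamini-Hochberg adjustment over all 27841 genes of a comparison and calls at an adjusted p under 0.05. The fit was tested on simulated data. Of the 59 probes 46 carry a RefSeq accession, 44 were found in the RefSeq table, and all of these had the symbol on the array.

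Full values by array go to members with a region range of at least 1 (log2) and a called F test, or at least 1 from total brain in 3 or more groups with all arrays on one side. Partner genes are named at a called range of at least 1. The members and lists were chosen with earlier results of these data known. Promoters are RefSeq's, for 32 of the 37 genes. Alternatives tried were the offset, background, normalization, filter, probe and symbol choices, array weights, the regional arrays alone, the replicate block, the sorted channel alone and leaving out each array. Same-numbered arrays of different regions deviated from their group means with correlations of -0.11 to 0.23, 4 of 18 over 0.1. Differently numbered arrays gave -0.23 to 0.24, 5 of 36 over 0.1. The numbers were not treated as pairs, and these correlations cannot show whether regions share animals. The number of arrays limits the precision.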

Additional observations from a re-analysis of the deposited data

Results flagged for a closer look

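Among whole brain arrays, Ephb6 on array 4 stood apart from the other 3, at -0.89. Such a gap was looked for in 37 genes, and chance gives it in about 1 in 20 groups.

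The 14 guidance genes whose regions differed by at least 2-fold on their brightest probes are listed by their widest pair. Values are log2 differences in limma's fit, and every adjusted p was at most 5.72e-06. Between cerebellum and olfactory bulb the difference was 2.17 for Efna5, -2.14 for Efnb2, 1.87 for Robo3, 1.37 for Unc5a, 1.37 for Ntn1, 1.21 for Ephb2 and 1.13 for Ephb6. Between cerebellum and striatum it was 2.11 for Unc5c and 1.96 for Ephb1, and between cerebellum and cortex -1.08 for Epha5. Between olfactory bulb and striatum it was 1.65 for Robo2, -1.56 for Robo1, -1.17 for Epha4 and -1.13 for Epha7. In each pair the arrays of the regions did not overlap. The genes were chosen by range and each pair is the widest, so separated arrays follow largely from that choice. The share of all genes with separated arrays was not counted.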

How the results depend on the processing

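Under 13 other settings for differences among regions, 11 for whole brain against the regions and 10 against total brain, and with each of the 16 arrays left out, all 67 single-gene differences followed kept their direction and their call. All 67 had been chosen as called differences of at least 2-fold, so the weaker calls given above were not followed. No setting read a gene from a second probe alone, and second probes gave other results for some of these differences, as given above. The count of guidance genes called in cortex against the other 3 regions was 14 with array weights, against 8, and the cause was not tested. No other count moved by over 1.5 times. Leaving out 1 array gave 28 to 32 genes called among regions, 21 to 25 in cerebellum, 18 to 24 in olfactory bulb, 7 to 10 in cortex and 14 to 22 in striatum. With a replicate block over the regional arrays, 32 genes were called among regions, 27 in cerebellum, 24 in olfactory bulb, 10 in cortex and 22 in striatum. Values of single genes moved by over 1.5 times with the mean of all probes: Epha7 between olfactory bulb and striatum was -0.40, Robo2 between them 1.04, and Epha5 and Epha7 against total brain lay nearer 0, at -0.97 and -1.12 in whole brain. With the scanner software's ratio, Ephb6 between cerebellum and olfactory bulb was 2.24. Over all genes, cortex against the other 3 regions called 2913 genes, 4494 with scaling between arrays and 5705 with array weights. Array weights also gave 11313 against 7236 genes for cerebellum against cortex and 10103 against 5187 for cortex against striatum. Median centring in place of loess made 60.6% of calls in olfactory bulb against the other regions higher, against 46.5%, with 45.9% against 57.4% for cerebellum against olfactory bulb, 65.4% against 50.4% for olfactory bulb against cortex and 62.4% against 51.7% for olfactory bulb against striatum. The scanner software's ratio put the median of all genes in whole brain at 0.25 against total brain, and 0.085 with loess. Dim genes, such as Unc5b, are limited by their signal over background.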

Other observations

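On the array, 8 probes carry the name of a cDNA clone and a description that names a guidance gene, and they entered no comparison. A clone probe described as Eph receptor A3 averaged 1.58 in whole brain, 1.54 in cerebellum, 1.64 in olfactory bulb, 1.34 in cortex and 1.29 in striatum, above total brain where the Epha3 probe lay below it, at -1.50 in whole brain and -0.70 in cortex. The brighter of 2 probes described as neogenin averaged -1.57 in whole brain, -0.58 in cerebellum, -0.80 in olfactory bulb, -0.79 in cortex and -0.99 in striatum, below total brain where the Neo1 probe lay at 1.05 in cerebellum and 0.74 in striatum. This clone probe was also brighter than the Neo1 probe, with a mean log2 intensity of 11.4 against 10.1. Both clone probes described as deleted in colorectal carcinoma, the gene Dcc, were highest in cerebellum, at 1.12 and 0.67, as was the Dcc probe at 0.67. With RefSeq's newer symbols, 3 more probes carry a name of these families, Ntn5, Epha10 and Neo1.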
